A study of Rattus norvegicus with 3 samples.

Results

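The genes described here encode 9 RNA-binding proteins of neurons: the fragile X protein FMRP and its relatives (Fmr1, Fxr1, Fxr2), the Staufen proteins (Stau1, Stau2), the polyadenylation regulator Cpeb1, and the neuronal ELAV or Hu proteins (Elavl2, Elavl3, Elavl4). They were chosen by name, as the probe sets whose only gene symbol in the platform annotation is one of these 9. That rule gave 17 of the 31099 probe sets and 9 of the 14218 genes on the array. Each of the 3 arrays carried RNA of a single soma, labelled as the cell body of a Sprague-Dawley rat neuron. The paper calls the neurons it collected pyramidal, took them from hippocampal cultures and parted soma and dendrites with a glass pipette. Its methods do not describe these 3 somata. The cultures were set up at embryonic day 19, received no treatment and were 14 days old at collection. All arrays form 1 group, so the somata are named cells 1 to 3 by their labelled replicate number, and no condition was compared with another.

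These proteins act on mRNAs after transcription. FMRP and the Fxr proteins bind mRNAs and polyribosomes, and FMRP restrains translation near synapses, where its loss causes fragile X syndrome. Staufen proteins bind double-stranded stretches of RNA and travel with transport granules into dendrites. Cpeb1 binds a short U-rich element in the 3' untranslated region and controls the length of the poly(A) tail, while the neuronal ELAV proteins bind AU- and U-rich elements and stabilise the transcripts of differentiating neurons. The study compared the RNA of dendrites between rat and mouse, and the values below describe where the mRNAs of this RNA-handling machinery stood in the rat soma.

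Values were deposited on a log2 scale. For each gene the median of its probe sets was taken, and its percentile is its place among all 14218 genes of the same array, so 50 is the middle of the array. A probe set also reflects how well its probes bind, so a percentile does not rank transcripts by abundance. Background was the 95th percentile of 104 genes of other organs and sensory receptors, and lay at 9.74, 10.29 and 9.47 log2 in cells 1, 2 and 3. General neuronal markers had a median percentile of 88.0, 87.8 and 94.1 (20 genes) and pyramidal markers 56.5, 61.4 and 86.2 (18 genes). The medians were 57.3, 70.1 and 36.7 for interneuron markers (11 genes), 47.5, 33.2 and 28.4 for astrocyte markers, 72.0, 55.9 and 50.3 for oligodendrocyte markers, 64.6, 50.3 and 34.4 for microglial markers and 70.3, 57.7 and 37.4 for vascular markers (13 genes each). In cell 1 all of these but the astrocyte list lay above the pyramidal markers. Cell 1 stood apart in the end bias of its RNA: the 3' probe set of beta-actin exceeded the 5' one by 0.32 log2 there, against 2.07 in cell 2 and 1.71 in cell 3. The arrays do not separate spread between cells from spread of the amplification, and their number limits the precision of every mean ± SD (n = 3 cells).

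As a set, the 9 genes did not read high in the soma. Elavl3 and Stau2 lay above the middle of the array in every cell, where 26.4% of all genes did. By the median of their probe sets, Fmr1, Fxr1, Fxr2, Cpeb1 and Elavl2 lay below the middle in every cell. The share of all genes below it in every cell was not computed. The median percentile of the 9 was 40.8, 41.9 and 26.7 in cells 1, 2 and 3, or 36.5 ± 8.52 (SD, n = 3 cells). None was above background in cell 1 or cell 2, where 7.02% and 4.37% of all genes were, and none was in every cell, where 1.79% were. In cell 3 only Elavl3 was, against 10.5% of all genes. At least 1 cell above background was thus found for 1 of 9 genes against 15.5% of all genes, and for none without cell 3. With the brightest probe set in place of the median of a gene the count was 4 of 9, against 24.3% of all genes.

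**Figure D1:**
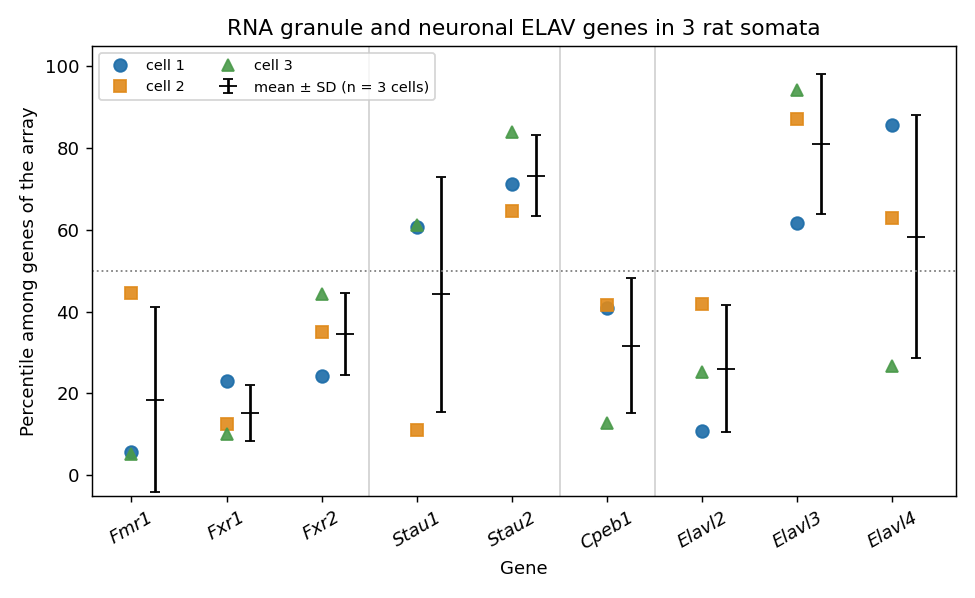
Percentile of each gene among the 14218 genes of an array (vertical axis) as a circle for cell 1, a square for cell 2 and a triangle for cell 3, with the mean ± SD (n = 3 cells) in black and a dotted line at the middle of the array; grey lines part the FMRP, Staufen, CPEB and ELAV families. Elavl3 and Stau2 sit above the dotted line in every cell, and Fmr1, Stau1 and Elavl4 have 1 cell far from another.

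The FMRP family stood in the lower part of the array. Fmr1, which encodes FMRP, had log2 values of 5.19, 7.04 and 4.93 in cells 1, 2 and 3, at percentiles of 5.60, 44.6 and 5.09. Cell 2 gave the highest reading and the other cells were nearly equal. All 3 readings were below background, by 4.55, 3.25 and 4.54 log2, so no fold between the cells is given. Fxr2, an FMRP relative found on polyribosomes, read 6.33, 6.68 and 6.97 log2, at percentiles of 24.2, 34.9 and 44.3. It varied little, with an SD of 0.42 log2 over the cells after quantile normalisation, which gives the arrays 1 common set of sorted values, a spread larger than that of 19.9% of all genes. Fxr1, the relative that muscle also needs, read 6.28, 5.62 and 5.35 log2 (percentiles of 23.0, 12.6 and 9.95) and had the smallest spread of the 9 genes, 0.36 log2. That small spread belongs to readings below background and to the median of its 3 probe sets. It hides a probe set that differed widely between cells, which is described below. The family median was 23.0, 34.9 and 9.95, or 22.6 ± 12.5.

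The Staufen genes differed from each other. Stau2, the Staufen that is enriched in brain and carried in dendritic granules, read 8.06, 7.78 and 8.87 log2 as the median of 4 probe sets. Its percentiles of 71.3, 64.6 and 83.9 made it the member with the second-highest mean, 73.3 ± 9.83. Stau1, which is expressed widely and also takes part in mRNA decay, read 7.63, 5.52 and 7.61 log2, at percentiles of 60.6, 11.0 and 61.1. Cells 1 and 3 gave almost the same reading and cell 2 a lower one, and all were below background, by 2.11, 4.76 and 1.86 log2. Stau2 stood above Stau1 by 10.7, 53.5 and 22.9 percentile points in cells 1, 2 and 3, or 29.0 ± 22.1. By the median of the probe sets, the ranges of the genes over the cells did not overlap. Not every probe set of Stau2 gave this order. Probe set 1370680_at read below Stau1 in cells 1 and 3 (7.48 and 5.57 log2), and 1379754_at did in cell 1 (5.87). Probe sets 1387456_at and 1390558_at read above Stau1 in every cell. Cell 2 gave the lowest reading of Stau1 and the highest of Fmr1.

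Cpeb1 was measured by 1 probe set. It read 6.95, 6.93 and 5.53 log2, at percentiles of 40.8, 41.6 and 12.7, so that cells 1 and 2 were alike and cell 3 read lower, with all 3 below background. Its mean percentile was 31.7 ± 16.5. The paralogues Cpeb3 and Cpeb4, which also regulate translation, stood at 36.6, 69.2 and 44.3 and at 69.2, 68.6 and 87.3. Cpeb4 was higher than Cpeb1 in every cell, and Cpeb2 was not analysed here.

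The neuronal ELAV genes held both the highest member and a low one. Elavl3 (HuC), used as a marker of postmitotic neurons, read 7.68, 9.09 and 10.27 log2, at percentiles of 61.7, 87.2 and 94.3, with a mean of 81.1 ± 17.1. Elavl4 (HuD), which binds Gap43 mRNA and is tied to neurite growth, read 8.88, 7.71 and 6.26 log2, at percentiles of 85.6, 62.8 and 26.7. Cell 3 gave the highest reading of Elavl3 and the lowest of Elavl4, and cell 1 the reverse, with cell 2 between them in both genes. Of these readings that of Elavl3 in cell 3 alone was above background, and Elavl4 lay 0.86, 2.57 and 3.21 log2 below it in cells 1, 2 and 3. Their difference in percentile, Elavl3 minus Elavl4, was -23.9 in cell 1, 24.4 in cell 2 and 67.6 in cell 3. Elavl2 (HuB) read 5.62, 6.94 and 6.20 log2, at percentiles of 10.9, 41.9 and 25.3, as the median of 3 probe sets of which 1 was bright. Elavl1 (HuR), the member of the family that all cells express, stood at 71.3, 39.0 and 81.0 and is no neuronal marker.

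Marker levels of other cell types also differed between the cells. Beside the counts that follow, 7.02%, 4.37% and 10.5% of all genes were above background in cells 1, 2 and 3. Microglial markers summed to 13.35, 11.33 and 10.86 log2 in cells 1, 2 and 3, with 4, 0 and 0 of 13 genes above background, astrocyte markers to 12.36, 10.75 and 11.07, with 1, 0 and 1 of 13, and oligodendrocyte markers to 12.36, 11.93 and 10.98, with 1, 0 and 0 of 13. Each of these lists was highest in cell 1, as Elavl4 was. Interneuron markers (11 genes) summed to 11.94, 12.29 and 12.08 and vascular markers (13 genes) to 13.04, 13.41 and 13.27, a sum led by Vwf in every cell, although the vascular median percentile given above was highest in cell 1. General neuronal markers summed to 14.80, 15.05 and 15.94 log2, with 6, 5 and 15 of 20 above background, and were highest in cell 3, as Elavl3 was. The part of these markers, and of the end bias of the RNA in cell 1, in the ELAV values was not tested.

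Single probe sets of a gene often disagreed, and this decided how several members read. Fxr1 was represented by 3 probe sets. Probe set 1383236_at read 11.04, 9.74 and 5.35 log2, while 1374476_at read 6.28, 4.95 and 5.23 and 1378054_at read 5.78, 5.62 and 6.41. The first therefore ran from 1.30 log2 above background in cell 1 to the dim level of the other probe sets in cell 3. The cell 3 reading was 4.12 log2 below background, so the size of the difference is not a measured fold. After quantile normalisation 5.73 log2 lay between its extremes, and 138 of 20832 single-symbol probe sets had as wide a range or a wider one. The median over probe sets removes this signal from the value of the gene. With the brightest probe set the mean percentile of Fxr1 was 64.5 ± 47.8 in place of 15.2 ± 6.92, above Fxr2 at 29.8 ± 8.25.

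Elavl2 also had 1 probe set that read higher than the others, here in every cell. Probe set 1383736_at read 9.22, 10.36 and 11.40 log2 and was above background in cells 2 and 3, whereas 1381677_at read 5.58, 6.94 and 5.23 and 1383768_at read 5.62, 4.72 and 6.20. The gap between the brightest and the dimmest ranged from 3.64 to 6.17 log2 within a cell. All 3 were designed on expressed sequence tags, and the part of the transcript that each one covers was not looked at. By the bright probe set alone Elavl2 stood at a mean percentile of 90.8 ± 6.70, the second-highest of the 9, against 26.0 ± 15.5 by the median.

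Stau2 had 4 probe sets, 2 of which read high in every cell. Probe set 1387456_at, designed on a curated mRNA, read 9.39, 11.01 and 11.03 log2 and passed background in cells 2 and 3. Probe set 1390558_at was the steadiest of all 17, at 8.63, 8.32 and 8.61 log2, and its range after quantile normalisation exceeded that of 3.18% of probe sets. The other probe sets changed in opposite directions: 1379754_at read 5.87, 6.54 and 9.13, and 1370680_at read 7.48, 7.24 and 5.57. Cell 3 was thus the highest by one and the lowest by the other.

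Elavl3 had the smallest gap between probe sets. Probe set 1382168_at read 7.71, 9.11 and 10.28 log2 and 1382169_x_at read 7.64, 9.07 and 10.26, never more than 0.07 apart. Both were designed on the same sequence record, so their match is no independent support. The range of median percentiles over the probe sets of a gene was 0.485 for Elavl3, where it was 26.4 in the median of 3060 genes with 2 probe sets. It was 79.4 for Fxr1 and 80.9 for Elavl2, against 44.3 for 1037 genes with 3 probe sets, and 62.3 for Stau2, against 57.5 for 290 genes with 4.

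Over all 17 probe sets, 5 were above background in at least 1 cell, against 18.9% of the 20832 single-symbol probe sets. These were 1383236_at of Fxr1 in cell 1, 1387456_at of Stau2 and 1383736_at of Elavl2 in cells 2 and 3, and both probe sets of Elavl3 in cell 3. None was above it in every cell, where 2.53% of probe sets were. Fmr1, Fxr2, Stau1, Cpeb1 and Elavl4 rest on 1 probe set each, so no second reading exists for them.

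**Figure D2:**
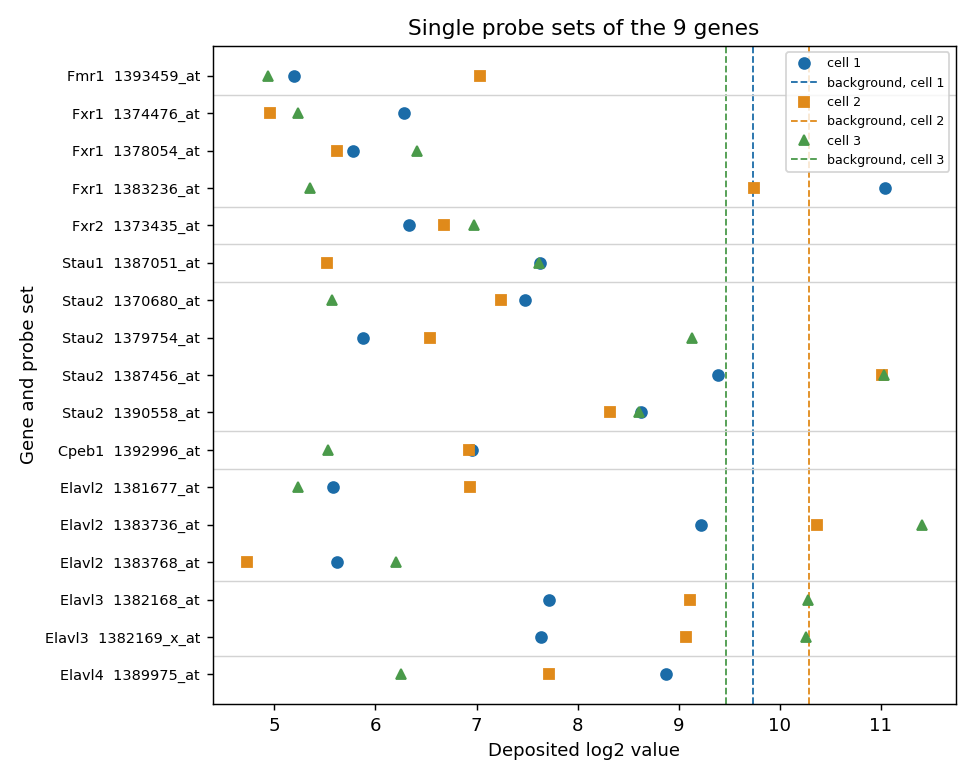
Deposited log2 value (horizontal axis) of each of the 17 probe sets as circles for cell 1, squares for cell 2 and triangles for cell 3, grouped by gene, with the background of each array as a dashed line of the same colour. Fxr1, Stau2 and Elavl2 each hold 1 probe set that reaches background beside dimmer ones, and the probe sets of Elavl3 coincide.

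By the median of their probe sets, the 9 genes varied between somata about as much as other genes did. The SD over the cells of the quantile-normalised log2 values had a median of 0.73 in the 9 genes and of 0.77 in all genes. This likeness depends on the processing. The 9 genes exceeded all genes with the mean of the probe sets (0.95 against 0.75) and the brightest one (1.15 against 0.86). So did the 5 left without the dimmest genes (1.20 against 0.81). The 9 genes also did without cell 1 (0.78 against 0.53) or cell 3 (0.81 against 0.64), but not without cell 2 (0.58 against 0.71). All genes gave 0.85 with 1 probe set and 0.64 with more, which was not matched for. A difference over 2-fold in at least 1 pair of cells was found for 7 of 9 genes, against 71.0% of all genes, and the exceptions were Fxr1 and Fxr2. These are differences between readings, of which that of Elavl3 in cell 3 alone was above background. Past 4-fold were Stau1, Elavl3 and Elavl4, or 3 of 9 against 31.5% of all genes. Between cells 1 and 2, 5 of the 9 genes were over 2-fold apart (46.6% of all genes), between cells 1 and 3 there were 3 (50.4%), and between cells 2 and 3 there were 6 (36.3%). Cells 2 and 3, the pair with the fewest such genes on the whole array, thus had the most among the 9. Without cell 2, 3 of the 9 genes were over 2-fold apart, against 50.3% of all genes, since the differences of Fmr1, Stau1, Stau2 and Elavl2 past 2-fold all involved that cell.

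The cells in which the genes stood high were not the same. Cell 3 gave the highest percentile of 4 of the 9 genes (Fxr2, Stau1, Stau2, Elavl3) and the lowest of 4 others (Fmr1, Fxr1, Cpeb1, Elavl4). Cell 1 gave the highest of Fxr1 and Elavl4, and cell 2 that of Fmr1, Cpeb1 and Elavl2. The shares of all genes highest or lowest in each cell were not computed, and most of these readings were below background. The median of the 9 genes was lowest in cell 3, as were the medians of the FMRP family (9.95), of Cpeb1 (12.7) and of the neuronal ELAV genes (26.7).

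**Figure D3:**
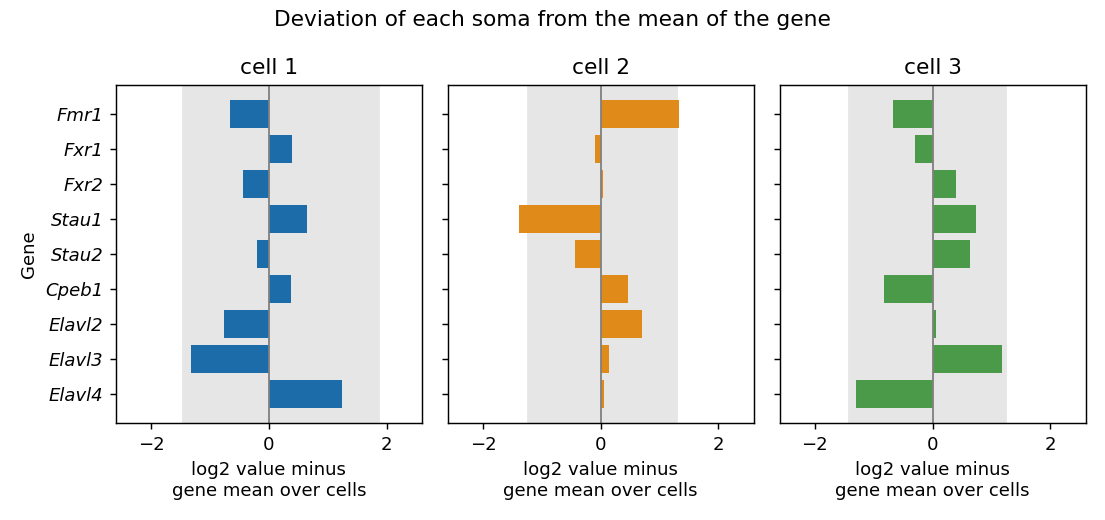
Deviation of each gene in each soma from its own mean over the 3 cells, in log2 units after quantile normalisation (horizontal axis), with the central 90% of the same deviation over all 14218 genes shaded. Most readings behind the bars are below background. Fmr1 and Stau1 pass the shading in cell 2, in opposite directions, and all other bars lie inside it. Elavl3 and Elavl4 oppose each other in cells 1 and 3.

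Ordered by mean percentile of the median over probe sets, the genes ran from Elavl3 (81.1) and Stau2 (73.3) through Elavl4 (58.4), Stau1 (44.2), Fxr2 (34.5), Cpeb1 (31.7) and Elavl2 (26.0) to Fmr1 (18.4) and Fxr1 (15.2). The ranges over the cells of all neighbours in this order overlapped, so no neighbour stood apart beyond the spread. The order depends on the probe sets: with the brightest one of each gene Stau2 (92.1) and Elavl2 (90.8) came first, before Elavl3 (75.3), Fxr1 (64.5), Elavl4 (52.4), Stau1 (38.8), Fxr2 (29.8), Cpeb1 (27.6) and Fmr1 (16.2). With medians, of all 36 pairs of genes, 14 had ranges that did not overlap, and each of these included Stau2, Elavl3 or Fxr1. Fxr1 was below Fxr2 and Elavl4 in this way. The share of such pairs among all genes of the array was not computed, so the count is not set against it. The neuronal ELAV median exceeded the FMRP family median by 38.7, 27.9 and 16.7 percentile points in cells 1, 2 and 3, or 27.8 ± 11.0. With the brightest probe set of each gene the difference was 60.1 ± 19.1, since Elavl2 then read high, and without the dimmest 25% of genes it was 42.9 ± 16.9, with 1 gene of the FMRP family left.

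For each member, the gene with the nearest percentiles among 95 other RNA-binding protein genes was sought, by the smallest value of the largest difference over the 3 cells. The closest match was Celf4, a neuronal regulator of mRNA stability and splicing, which stood at 59.7, 86.6 and 93.0 and so within 2.08 points of Elavl3 in every cell. Cpeb4 lay within 3.99 points of Stau2, and the decapping cofactor Pnrc2 within 2.16 of Fxr1. The deubiquitinase Usp9x lay within 3.87 of Fxr2, Purb, which binds purine-rich elements, within 9.29 of Elavl4, and Celf3 within 9.33 of Cpeb1. The others had no close partner: the nearest were Hnrnpd to Elavl2 (13.3), Syncrip to Stau1 (18.7) and Nova2 to Fmr1 (21.6). With 3 cells such likeness is a description of these arrays.

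The wider RNA-binding machinery stood near the middle of the array. The 95 genes had a median percentile of 53.0, 59.5 and 53.1 in cells 1, 2 and 3, or 55.2 ± 3.76, above the 9 members in each cell. Without the dimmest 25% of genes this turned, at 48.0 against 50.3 for the 5 members left. Of the 95 genes, 5, 3 and 11 were above background in cells 1, 2 and 3, where 7.02%, 4.37% and 10.5% of all genes were. In every cell 2 of them were, against 1.79% of all genes. In no cell were 81 of them, while 15.5% of all genes passed background in at least 1 cell. The medians of the component lists were 61.3 ± 3.82 for 35 genes of transport granules and 54.2 ± 3.58 for 17 partners of FMRP. They were 52.4 ± 9.38 for 29 genes of stress granules and processing bodies, and 51.5 ± 1.75 for 15 neuronal splicing factors. The paralogues Elavl1, Cpeb3 and Cpeb4 (3 genes) had the highest median of these lists, 72.9 ± 7.02.

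Among the partners of FMRP, Nufip1, a nuclear FMRP-interacting protein, was above background in every cell at percentiles of 97.5, 97.8 and 98.0. Cyfip2, which links FMRP to the actin regulator WAVE, stood at 56.1, 85.6 and 86.1, and the purine-element protein Purg at 88.1, 83.0 and 73.4. Nufip2 (33.1, 44.5 and 29.0) and Ranbp9 (3.79, 10.7 and 23.2) closed the list. Fmr1 itself thus lay below Nufip1, Cyfip2 and Purg in each soma, on probe sets of unknown relative affinity. It lay above Ranbp9 in cells 1 and 2 and, by little, above Nufip2 in cell 2. All Fmr1 readings were below background.

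In transport granules the RNA-binding protein Khdrbs3 (96.5, 93.0 and 80.0), the helicase Ddx1 (69.3, 93.0 and 92.4) and the translational repressor Pum2 (91.1, 92.6 and 80.8) read highest. Magoh, a core protein of the exon junction complex, stood at 2.95, 3.73 and 5.44, and Khdrbs2 at 1.59, 0.0281 and 0.285. The list of stress granules and processing bodies was led by Zfp36l1 (89.5, 98.3 and 98.3) and Zfp36 (96.3, 97.3 and 97.6), which bind AU-rich elements and promote decay of the mRNA, and by Atxn2l (88.8, 83.9 and 93.5). Zfp36 was above background in every cell. Lsm14b, a processing-body protein, was the most uneven of those named here, at 99.5, 18.8 and 0.770.

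Neuronal splicing factors were led by Celf4, followed by Rbfox3, the antigen NeuN (62.2, 87.4 and 82.0), and Msi2 (79.0, 81.1 and 45.4). Nova2 (11.0, 23.0 and 2.32) and Mbnl1 (51.2, 5.57 and 8.68) were at the lower end. Celf4 and Rbfox3 had their lowest percentile in cell 1, and Msi2 and Nova2 in cell 3.

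Transcripts known as cargo of these proteins, pooled over the lists, had a higher median percentile than the 9 genes in each cell, a difference that was not tested. The 48 cargo genes had a median percentile of 64.9, 56.7 and 74.0 in cells 1, 2 and 3, or 65.2 ± 8.66. The lists were drawn up from general knowledge, share genes, and say nothing of binding in these cells. FMRP cargo had a median of 60.3 ± 4.69 (24 genes), Staufen cargo 69.8 ± 12.6 (9 genes), CPEB cargo 44.7 ± 20.4 (11 genes) and ELAV cargo 69.2 ± 10.02 (12 genes). The CPEB cargo differed from the other lists in that its medians of 38.3 and 28.2 in cells 1 and 2 lay below those of the 9 genes, while that of cell 3 was 67.5. By the brightest probe set CPEB cargo stood at 70.6 ± 11.9.

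The microtubule protein gene Map1b, cargo of both FMRP and Staufen, read 7.93, 10.77 and 11.29 log2, at percentiles of 68.1, 97.4 and 98.2. Dlg4, which encodes the scaffold PSD-95, stood at 89.5, 98.8 and 97.3 and the AMPA receptor subunit Gria1 at 72.7, 89.6 and 85.3, whereas Nlgn1 (45.5, 5.12 and 9.15) and Rgs5 (4.70, 8.63 and 12.7) read low. Of Staufen cargo, Ddn, the postsynaptic protein dendrin, stood at 97.3, 93.8 and 87.4, and Rgs4 at 27.2, 92.2 and 83.2. The motor gene Kif5c (94.6, 7.95 and 28.7) and Camk2a (26.5, 19.6 and 26.2) were at the lower end. Camk2a, a classic dendritic mRNA named as cargo of FMRP, Staufen and CPEB alike, thus read low in all 3 somata.

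Cargo of CPEB was led by Mapk14 (94.4, 99.1 and 98.5), the calcium-binding chaperone Calr (92.9, 91.0 and 90.8) and the early gene Fos (78.3, 28.2 and 77.5), and closed by the cyclin Ccnb1 (21.2, 8.13 and 2.57) and the protease Plat (69.0, 4.42 and 3.76). Cargo of the ELAV proteins was led by Mapt, which encodes tau (97.4, 99.3 and 99.5), Gap43, a protein of growth cones (95.7, 88.1 and 81.2), and the channel gene Kcnh3 (78.3, 83.1 and 90.7). Neurod1 (17.6, 17.4 and 87.2) and Mycn (1.03, 13.8 and 14.0) were lowest. Gap43, like Elavl4, was highest in cell 1 and lowest in cell 3, whereas Mapt, like Elavl3, was lowest in cell 1.

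**Figure D4:**
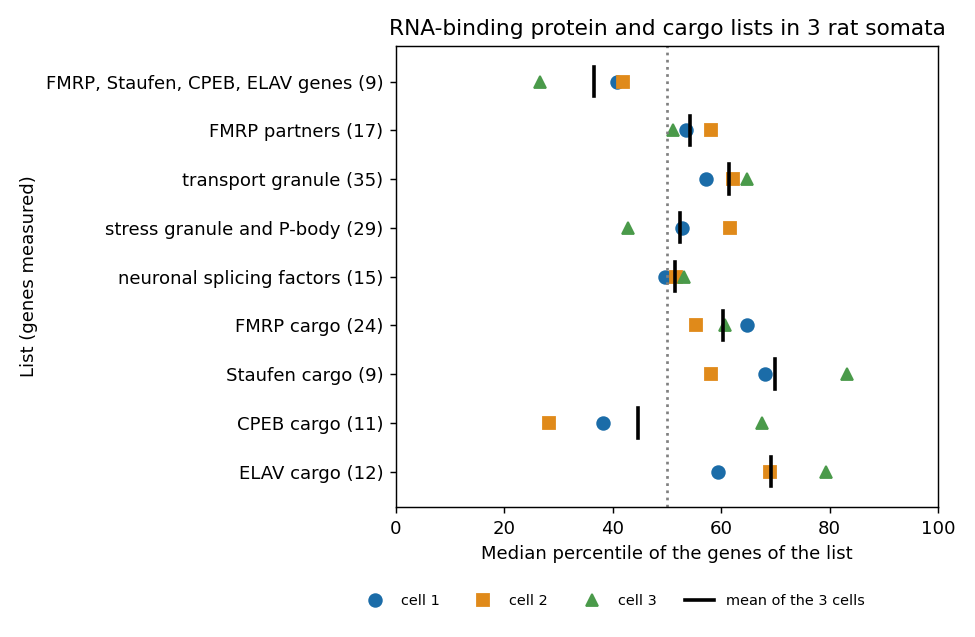
Median percentile (horizontal axis) of the 9 FMRP, Staufen, CPEB and ELAV genes and of 8 further lists as circles for cell 1, squares for cell 2 and triangles for cell 3, with black bars at their means, the number of genes measured in brackets and a dotted line at the middle of the array. The 9 genes lie left of the dotted line in every cell, and of the other lists CPEB cargo has the widest spread.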

How the data were processed

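RNA of 3 single rat somata was amplified as antisense RNA over several rounds, the last of them for 14 h, and 5 µg per array were hybridised to an Affymetrix rat array. The authors deposited 1 log2 value per probe set, and the submitters' processing notes name RMA 2.0. The methods of the study describe median centring and scaling by the 10th-to-90th percentile span, which these values do not show. No genome build is given in the sources used here. Of 31099 probe sets, 20832 carried 1 symbol in the platform annotation, which can be old; 20764 of their gene numbers were found in the RefSeq gene table (GRCr8) and no symbol changed. A gene was the median of its probe sets and was ranked within its array, ties taking mean ranks. Levels between cells were compared after quantile normalisation of all probe sets. Nothing says that the somata came from separate animals or dishes, and with 1 group no test was run. Genes were named as follows: all 9 members, their paralogues, the 3 highest and 2 lowest genes by median percentile of each other list, and the nearest RNA-binding protein gene of each member. Members, lists and rules were chosen with earlier results of these data known. The steps were tested on simulated data and run with Python 3.11.15, numpy 2.4.6 and pandas 2.3.3. Alternatives covered the choice and ranking of probe sets, a filter on dim genes, the background, the scaling, the fold threshold and leaving out each cell.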

Additional observations from a re-analysis of the deposited data

How the results depend on the processing

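The ELAV minus FMRP difference stayed above 0 under every alternative run. Of 202 values recomputed, 171 moved by less than the spread over cells. For counts the limit was 1.5 times, and for the median SD it was the spread over the 9 genes. Among the 54 values of the main results, 39 stayed within these limits and 15 moved further. The order of the genes was recomputed through each gene's own percentile: Fxr1 lay above Fxr2 with the brightest probe set and with the mean of the probe sets (37.9 against 34.0). With the brightest probe set of each gene the median percentile of the 9 genes was 49.3 in place of 36.5, the ELAV minus FMRP difference 60.1 in place of 27.8, the 95 RNA-binding protein genes stood at 61.3 in place of 55.2, 4 genes in place of 1 were above background (24.3% in place of 15.5% of all genes) and the median SD was 1.15 log2 in place of 0.73 (0.86 in place of 0.77 over all genes). With the mean of the probe sets the median percentile of the 9 genes was 49.4 and their median SD 0.95 log2 (0.75 over all genes). Without the dimmest 25% of genes, which left 5 of the 9, these values were 50.3 for the median percentile, 42.9 for the difference, 48.0 for the 95 genes, now below the members, and 1.20 log2 for the SD (0.81 over all genes), and 4 genes were over 2-fold apart (72.6% of all genes). A background at the 99th percentile of the silent genes left 0 members above it (4.46% of all genes), and a 4-fold threshold 3 apart (31.5%). Leaving out each cell in turn gave 33.7 to 41.4 for the median percentile and 22.3 to 33.3 for the difference. It gave 53.0 to 56.3 for the 95 genes and 0 to 1 members above background (9.34 to 14.7% of all genes). Members over 2-fold apart were 6 without cell 1 (37.4% of all genes), 3 without cell 2 (50.3%) and 5 without cell 3 (45.9%). The median SD of the members was 0.78, 0.58 and 0.81 log2 without cells 1, 2 and 3. Over all genes it was 0.53, 0.71 and 0.64, so the members were below all genes only without cell 2. The filter left fewer genes and the omissions fewer cells, and the cause of these and the other moves was not tested beyond the probe sets named above. No paired analysis was possible because the arrays form 1 group. Signal over background limits most values, since 8 of the 9 genes and 12 of the 17 probe sets passed it in no cell.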
